A study of Bos taurus with 20 samples.

Results

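The 9 genes described here belong to the pathways of growth arrest and cell stress, most as brakes and MDM2 as an opponent of p53: the cyclin-dependent kinase inhibitor gene CDKN1A, the GADD45 genes GADD45A, GADD45B and GADD45G, the sestrin genes SESN1 and SESN2, and DDIT4, MDM2 and TXNIP. They were chosen by gene symbol from a list made with results of these arrays already known, among them the treatment differences of SESN1, GADD45G and CDKN1A. Treated against control values of the members are therefore a description: no p is printed for them, and the number past the fit's threshold is given only beside that of all probes, with nothing read from it. All 9 were on the array, on 10 probes, and 9 probes, 1 per gene, were bright enough to be tested. They stand among 11421 distinct gene symbols on 15437 tested probes.

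Neck muscle came from 10 cows at a slaughterhouse. The 5 control animals (K3, K6, K8, K9 and K10) are labelled only as control. The 5 treated animals (DE27, DE29, DE30, DE31 and DE32) were given the synthetic glucocorticoid dexamethasone orally, 0.4 mg per animal daily over 31 days, and intramuscular estradiol, 5 mg per animal weekly on 6 occasions, so that the effects of both hormones cannot be told apart. The time between the last dose and slaughter is not given in the sources used here. Muscle of each animal was kept under vacuum at 4 °C and sampled at storage day 0 and again at day 14, which gave 4 groups of 5 one-colour arrays.

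These genes sit at the end of stress pathways. The transcription factor p53 and, in muscle, FOXO factors and the glucocorticoid receptor switch many of them on. The CDKN1A protein, p21, blocks cyclin-dependent kinases, and GADD45 proteins bind the MAP3K4 kinase, PCNA and CDK1 and take part in DNA repair and demethylation. Sestrins and DDIT4 (also called REDD1) restrain mTORC1, the kinase complex that drives protein synthesis, and both CDKN1A and GADD45A are known from work on muscle atrophy. MDM2 is the ubiquitin ligase that removes p53, and TXNIP binds thioredoxin and limits glucose uptake.

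Levels are normalized log2 signal, each array centred on its 75th percentile, so that a change is relative to the bulk of the probes on that array. Before centring, the 75th percentile of array signal was 808 ± 112 (SD, n = 5) in fresh and 430 ± 97.9 in stored control muscle, and 823 ± 98.9 in fresh and 380 ± 54.4 in stored treated muscle. The muscle label was borne out by the array. Of 25 skeletal muscle fibre markers 21 were tested, and 20 of these were well above background on all 20 arrays. The arrays lay on 6 slides read in 3 scan sessions, and only 1 slide held both storage days of control animals and only 1 held both days of treated animals, so that storage and slide are largely confounded. In bulk muscle, fewer cells of a type and less RNA per cell cannot be told apart.

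**Figure D1:**
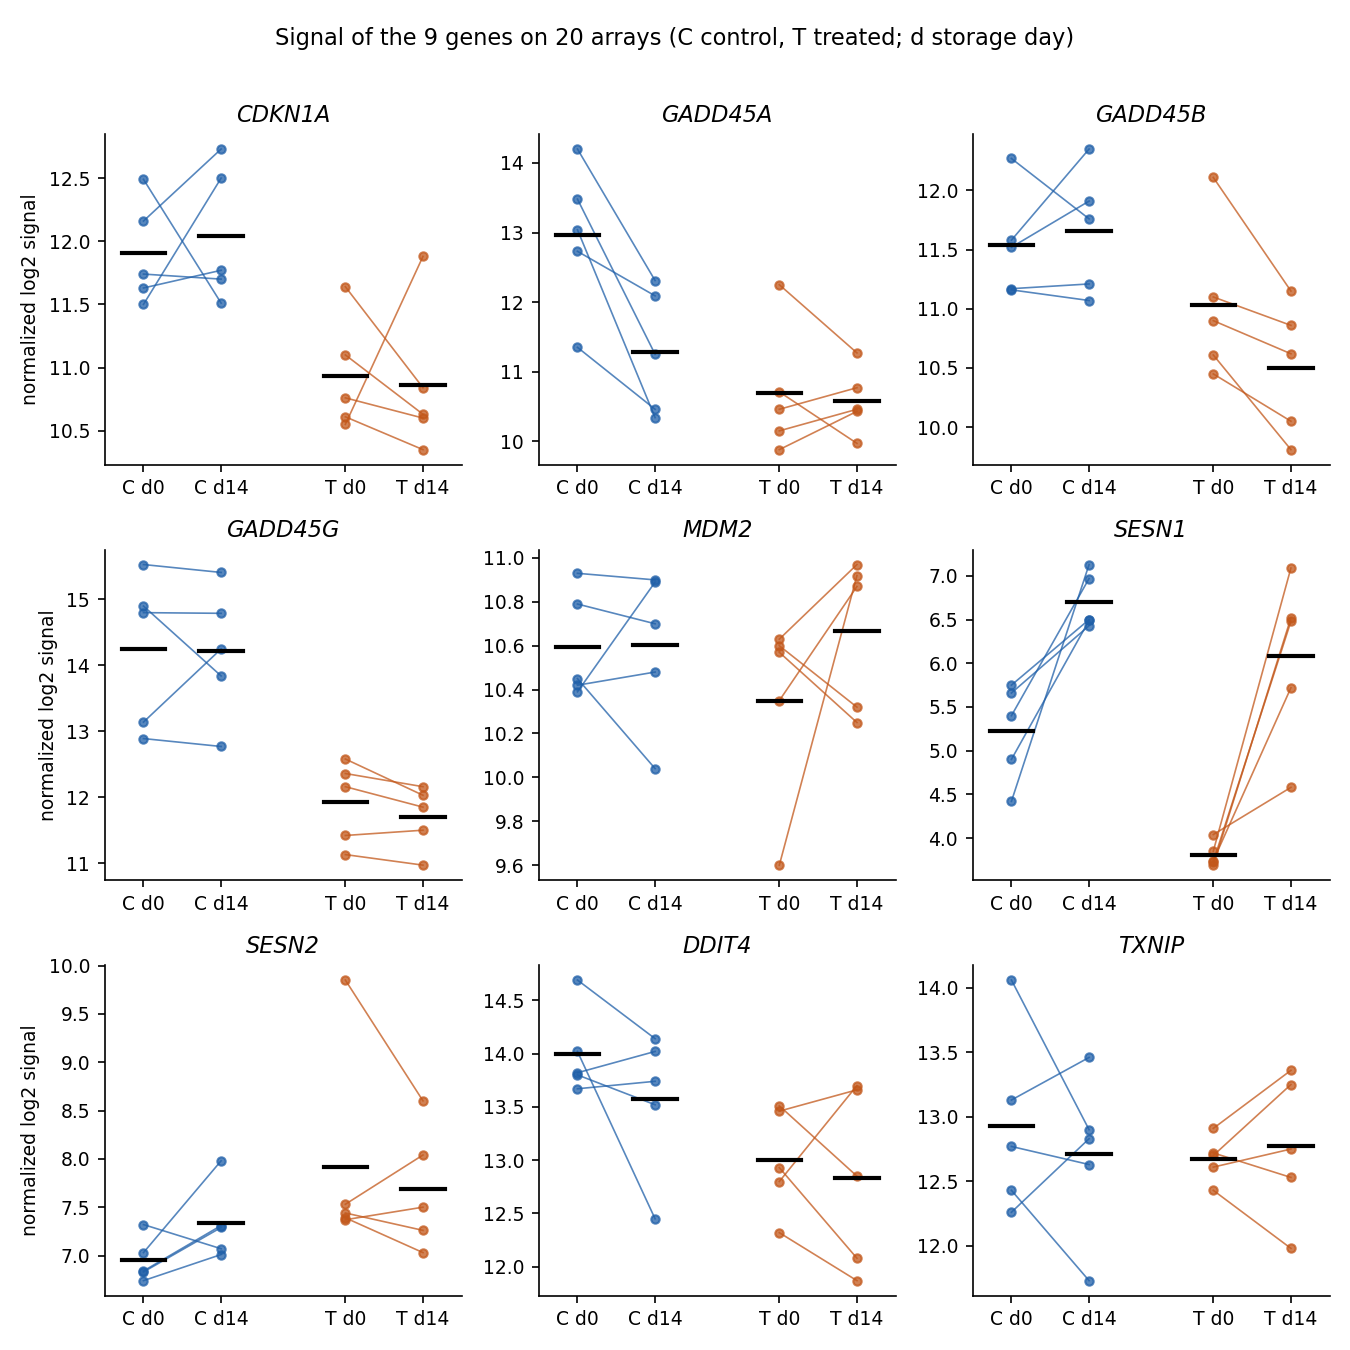
Normalized log2 signal (vertical axis, a scale of its own for each gene) of the 9 genes in control (C, blue) and treated (T, orange) animals at storage day 0 (d0) and day 14 (d14); each point is 1 array, thin lines join the arrays of 1 animal and black bars are means of 5. GADD45G is lower in every treated than in every control array, SESN1 is higher at day 14 in all 10 animals, and GADD45A is lower at day 14 in all 5 control animals.

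In fresh muscle at day 0, 8 of the 9 genes had a lower mean in treated than in control animals, and SESN2 had a higher one. The differences of GADD45G and GADD45A were the largest, close to 5-fold (4.99 and 4.81), followed by SESN1 at 2.67-fold, DDIT4 at 1.99-fold and CDKN1A at 1.96-fold. After 14 days the GADD45G difference was 5.68-fold and that of CDKN1A 2.27-fold, while the GADD45A difference was 1.63-fold and the SESN1 difference 1.54-fold. Both days are given below gene by gene.

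CDKN1A encodes p21, which binds cyclin and kinase and stops cells before DNA replication. At day 0 its log2 signal in control animals was 11.74 in K3, 11.63 in K6, 11.50 in K8, 12.16 in K9 and 12.49 in K10. Treated animals read 10.61 in DE27, 10.76 in DE29, 11.10 in DE30, 10.55 in DE31 and 11.64 in DE32. Treated animals were lower except DE32, which lay between K6 and K3, so that the groups overlapped through 1 treated animal.

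The CDKN1A difference at day 0 was -0.97 ± 0.25 on the log2 scale (SE of the limma fit, 5 against 5). At day 14 control animals read 11.70 in K3, 11.77 in K6, 12.50 in K8, 12.73 in K9 and 11.51 in K10, and treated animals 10.35 in DE27, 10.60 in DE29, 10.63 in DE30, 11.88 in DE31 and 10.84 in DE32. DE31 was the only treated animal within the control range, and the difference was -1.19 ± 0.33. The animal within the control range was thus DE32 at day 0 and DE31 at day 14.

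GADD45G, the family member first described as a cytokine-response gene, separated the treatments completely. Control animals at day 0 had log2 signals of 13.14 in K3, 12.89 in K6, 14.90 in K8, 14.80 in K9 and 15.53 in K10, against 12.36 in DE27, 11.42 in DE29, 12.58 in DE30, 12.16 in DE31 and 11.13 in DE32. The lowest control animals, K6 and K3, lay just above the highest treated animal, DE30.

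At day 14 the GADD45G signal was 14.25 in K3, 12.77 in K6, 13.84 in K8, 14.79 in K9 and 15.41 in K10, and 12.16 in DE27, 11.50 in DE29, 12.03 in DE30, 11.85 in DE31 and 10.97 in DE32. Again no treated animal reached a control animal, and K6 stayed the lowest control animal and DE32 the lowest treated one. The difference was -2.32 ± 0.52 at day 0, -2.51 ± 0.44 at day 14 and -2.41 ± 0.44 over the means of each animal. Within the 3 slides that held both treatments it ranged from -3.17 to -1.60 at day 0, and within the 3 such slides at day 14 from -4.44 to -0.93.

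GADD45A, a p53 target that takes part in growth arrest after DNA damage, had the widest spread among fresh control animals after GADD45G (SD 1.06, against 1.17). Its log2 signal at day 0 was 12.73 in K3, 11.35 in K6, 13.04 in K8, 13.48 in K9 and 14.20 in K10, and in treated animals 10.71 in DE27, 10.15 in DE29, 10.46 in DE30, 9.88 in DE31 and 12.25 in DE32. K6 lay below DE32, and the 4 other control animals lay above all treated animals.

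After storage GADD45A read 12.09 in K3, 10.46 in K6, 10.34 in K8, 11.25 in K9 and 12.31 in K10, and 9.97 in DE27, 10.46 in DE29, 10.77 in DE30, 10.43 in DE31 and 11.27 in DE32. The 2 ranges now overlapped widely. The treated over control difference was -2.27 ± 0.55 at day 0 and -0.71 ± 0.41 at day 14.

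GADD45B, which responds early to stress and TGF-beta signals, had its larger treatment difference at day 14. Its control range was 11.16 to 12.27 (median 11.52) at day 0 and 11.07 to 12.35 (median 11.76) at day 14, and its treated range was 10.45 to 12.11 (median 10.90) and 9.81 to 11.15 (median 10.62). The difference was -0.50 ± 0.32 at day 0 and -1.16 ± 0.32 at day 14. At both days the ranges overlapped, at day 14 only through DE30 at 11.15, above K6 at 11.07.

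SESN1 encodes sestrin 1, a p53 and FOXO target that restrains mTORC1 through the GATOR complexes. Its signal was the nearest to background of the tested member probes, and its fresh treated animals had the smallest spread of any member and group (SD 0.14). Control animals at day 0 read 4.42 in K3, 5.40 in K6, 5.75 in K8, 5.66 in K9 and 4.90 in K10, and treated animals 3.73 in DE27, 4.04 in DE29, 3.69 in DE30, 3.85 in DE31 and 3.74 in DE32. All treated animals lay below all control animals, and the DE27 signal was not well above background.

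The SESN1 difference at day 0 was -1.42 ± 0.24. It was -0.59 ± 0.10 under normexp background correction, which adds an offset and narrows differences of dim probes. At day 14, with 7.13 in K3, 6.97 in K6, 6.50 in K8, 6.43 in K9 and 6.49 in K10 against 6.48 in DE27, 4.58 in DE29, 6.52 in DE30, 7.09 in DE31 and 5.72 in DE32, the difference was -0.62 ± 0.40, and -0.19 ± 0.35 under normexp. DE29 and DE32 were then below all control animals and the 3 other treated animals lay among them.

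SESN2, the sestrin that senses leucine and is induced by ATF4, was the only member higher in treated animals at both days. At day 0 control animals read 6.83 in K3, 7.03 in K6, 7.32 in K8, 6.84 in K9 and 6.74 in K10, and treated animals 7.39 in DE27, 7.53 in DE29, 7.37 in DE30, 7.44 in DE31 and 9.85 in DE32. The groups did not overlap, although 4 treated animals lay just above K8, and DE32 stood far above all others. The difference was 0.96 ± 0.44 with DE32 and 0.48 without it.

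At day 14 SESN2 read 7.29 in K3, 7.98 in K6, 7.07 in K8, 7.31 in K9 and 7.01 in K10, and 7.03 in DE27, 8.04 in DE29, 7.50 in DE30, 7.26 in DE31 and 8.60 in DE32. DE32 was again the highest animal, and the others overlapped. The difference was 0.35 ± 0.31, and 0.12 without DE32.

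A second SESN2 probe, of a RefSeq transcript, was well above background on 3 of 20 arrays, all from treated animals, and was not tested. Those 3 arrays were DE29 at day 0 (3.80) and DE29 and DE32 at day 14 (5.14 and 4.41). On the other 17 arrays, all 10 control arrays among them, it read 1.40 to 3.55, with DE32 at day 0 the highest of these. Over the 20 arrays, which share the group differences, both probes correlated with r = 0.61. DE29 and DE32 had the highest treated signals at both days on both probes.

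**Figure D2:**
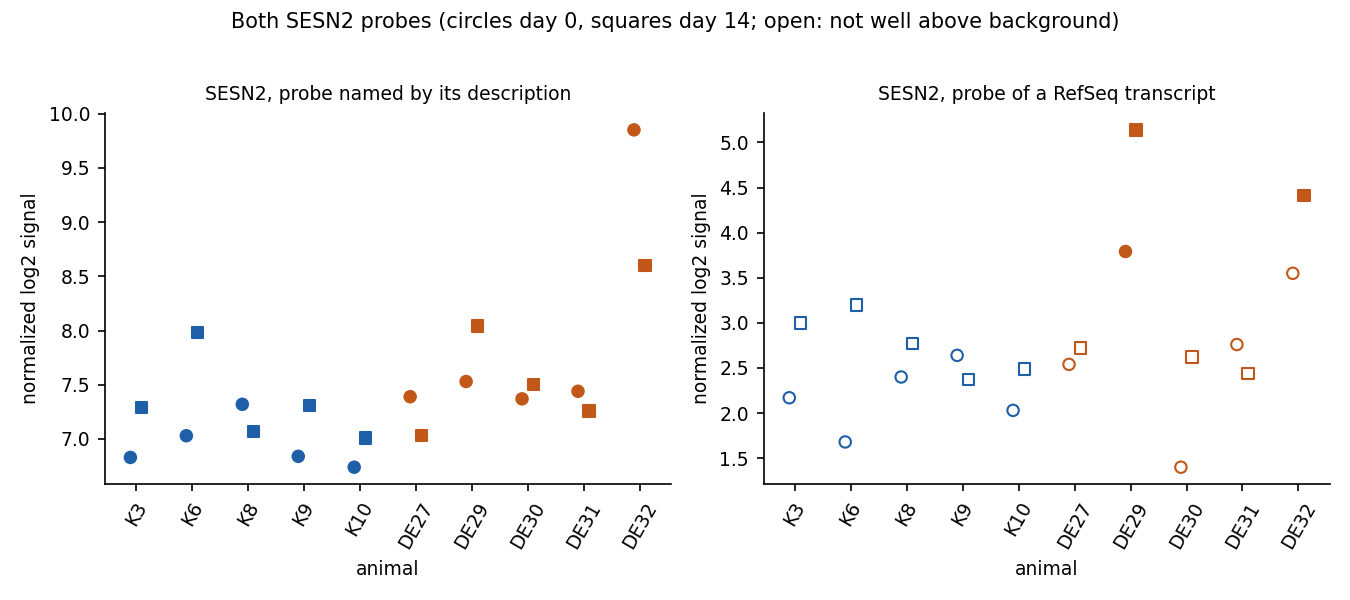
Normalized log2 signal (vertical axis) of both SESN2 probes in each animal, control in blue and treated in orange; circles are day 0, squares day 14 and open symbols arrays on which the probe was not well above background. The tested probe (left) is highest in DE32 at 9.85 and 8.60, and the dim probe (right) is above background only in DE29 and DE32.

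DDIT4, an inhibitor of mTORC1 that acts through the TSC complex and is a known glucocorticoid-induced gene of muscle, read 13.67 in K3, 14.02 in K6, 13.82 in K8, 14.69 in K9 and 13.80 in K10 at day 0. Treated animals read 12.32 in DE27, 12.93 in DE29, 12.80 in DE30, 13.46 in DE31 and 13.51 in DE32. No treated animal reached the lowest control animal, K3, and the difference was -0.99 ± 0.26. At day 14 the ranges overlapped, 12.45 to 14.14 (median 13.74) in control and 11.87 to 13.70 (median 12.85) in treated animals, with a difference of -0.74 ± 0.43.

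MDM2 and TXNIP had the values nearest to 0. For MDM2 the treated over control difference was -0.25 ± 0.22 at day 0 and 0.06 ± 0.23 at day 14, with DE27 at day 0 the lowest array of all at 9.60 and the 19 others between 10.04 and 10.97. TXNIP differed by -0.25 ± 0.30 and 0.07 ± 0.34. Its fresh control animals spread from 12.26 to 14.06 (SD 0.71) and its fresh treated animals only from 12.43 to 12.91 (SD 0.18).

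**Figure D3:**
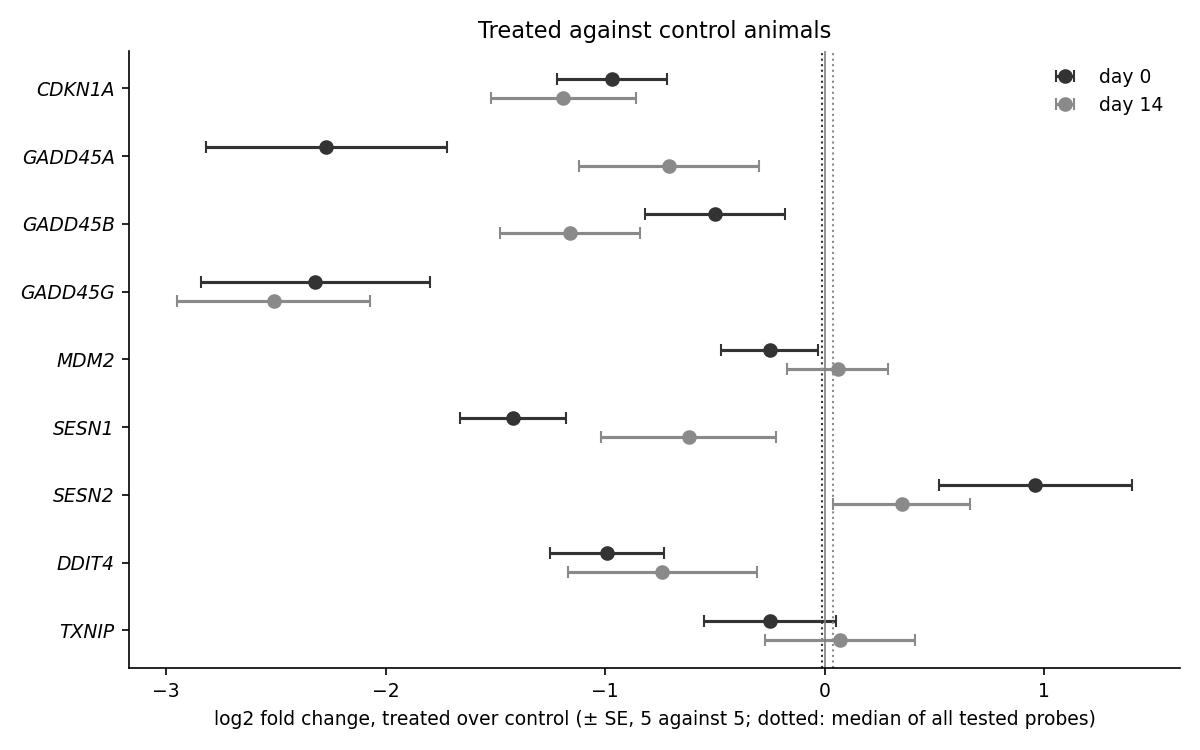
Treated over control log2 fold change of the 9 genes (horizontal axis) at day 0 (black) and day 14 (grey), with the SE of the limma fit, 5 animals against 5; dotted lines are the medians of all tested probes, -0.01 and 0.04. At day 0 the values run from -2.32 for GADD45G to 0.96 for SESN2.

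Read against all probes, these counts describe the choice of members. In limma, with Benjamini-Hochberg adjusted p-values over 15437 probes, 2 of 9 members, GADD45G and SESN1, were past an adjusted p of 0.05 on the lower side at day 0 and none on the higher side, where 1.13% of all tested probes were lower and 1.32% higher. At day 14 no member was past the threshold, and 0.0713% of probes were. Over both days 3 members, CDKN1A, GADD45G and SESN1, were past it on the lower side and none on the higher, against 1.96% and 1.41% of probes. The groups did not overlap for 4 members at day 0 (GADD45G, SESN1, SESN2 and DDIT4) and for 1 at day 14 (GADD45G), where the share of all tested probes was 5.88% and 2.29%. Nothing is read from these shares, since treatment values of these arrays entered the choice.

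The members' median difference was -0.97 at day 0, -0.71 at day 14 and -0.87 over both days, with medians of all tested probes of -0.01, 0.04 and 0.02. Leaving out single animals moved the day 0 count to between 1 and 3: it was 1 (SESN1) without any one of K8, K9, K10, DE27, DE29, DE30 or DE31. When slide was made a block it was 5, GADD45A, DDIT4 and CDKN1A being added, and with the scan session 4.

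Cold storage asks another question. It shares the arrays of both days with the treatment differences known when the members were listed, so that the low day 0 level of SESN1 in treated muscle and the high day 0 level of GADD45A in control muscle, parts of those differences, are also the baselines of the storage changes. SESN1 rose over 14 days in all 10 animals, 2.78-fold in control and 4.82-fold in treated muscle, where 4 of 5 fresh samples were well above background. GADD45A fell in all 5 control animals, 3.18-fold on average, and neither rose nor fell by the test in treated ones. The 7 other members passed the test in neither treatment. A change here is relative to the other transcripts on the array. The main storage fits do not use the pairing of both days by animal, which entered as an alternative.

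The SESN1 change within animals was 2.71 in K3, 1.56 in K6, 0.75 in K8, 0.77 in K9 and 1.59 in K10 on the log2 scale. Treated animals changed by 2.76 in DE27, 0.55 in DE29, 2.83 in DE30, 3.24 in DE31 and 1.98 in DE32. All changes were upward, smallest in DE29, K8 and K9, and in neither treatment did the 2 days overlap. The mean change was 1.48 ± 0.27 in control animals (limma adjusted p = 0.00242), 2.27 ± 0.39 in treated animals (adjusted p = 0.00209) and 1.87 ± 0.26 over all (adjusted p = 6.45e-06).

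Signal and slide moved with the SESN1 result. Its processed signal before centring was 24.8 to 88.7 in control animals at day 0 and 60.9 to 120.3 at day 14, which overlap, with K3 and K10 higher at day 14 and K6, K8 and K9 lower. It was 16.8 to 24.1 at day 0 and 14.1 to 78.0 at day 14 in treated animals, where 4 of 5 were higher at day 14 and DE29 was not. Probes within 0.5 log2 units of its mean level of 5.45 (1670 tested probes) had a median storage change of 0.32 in control and 0.33 in treated animals, with upper quartiles of 0.82 and 0.87. The part of the lower array signal in the SESN1 change was not tested.

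When slide was made a block, the SESN1 change in control animals rests on the 1 slide with both days and was 1.91 ± 0.48 (limma adjusted p = 0.0804). In treated animals it rests on the DE32 arrays and was 1.98 ± 0.85 (adjusted p = 0.259). Over all animals it still passed (adjusted p = 0.0161). Within scan sessions the SESN1 difference was 2.05, 0.76 and 1.91 in control animals and 1.50 and 2.68 in treated animals, the third session holding no treated array of day 14.

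GADD45A changed within control animals by -0.64 in K3, -0.89 in K6, -2.70 in K8, -2.23 in K9 and -1.88 in K10. Treated animals changed by -0.74 in DE27, 0.31 in DE29, 0.31 in DE30, 0.55 in DE31 and -0.98 in DE32. Control animals all fell, most in K8, and treated animals were split, 3 up and 2 down. The mean was -1.67 ± 0.54 in control animals (limma adjusted p = 0.0293) and -0.11 ± 0.41 in treated animals (adjusted p = 0.862, 95% interval -1.01 to 0.79). Day 0 and day 14 ranges of control animals overlapped.

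The GADD45A call in control animals was lost without K8 (-1.41, limma adjusted p = 0.107) or without K9 (-1.53, adjusted p = 0.118). It was also lost when slide was made a block (-2.98 ± 0.84, adjusted p = 0.0974), while its 3 within-session differences were -1.58, -1.48 and -2.98. With the animal as a block the call stayed (-1.67 ± 0.32, limma adjusted p = 0.01). Over all 10 animals the change was -0.89 ± 0.39 (adjusted p = 0.0596), and it passed without DE29, DE30 or DE31 (adjusted p = 0.0495, 0.0492 and 0.0400) and under normexp (-1.09 ± 0.38, adjusted p = 0.0150).

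**Figure D4:**
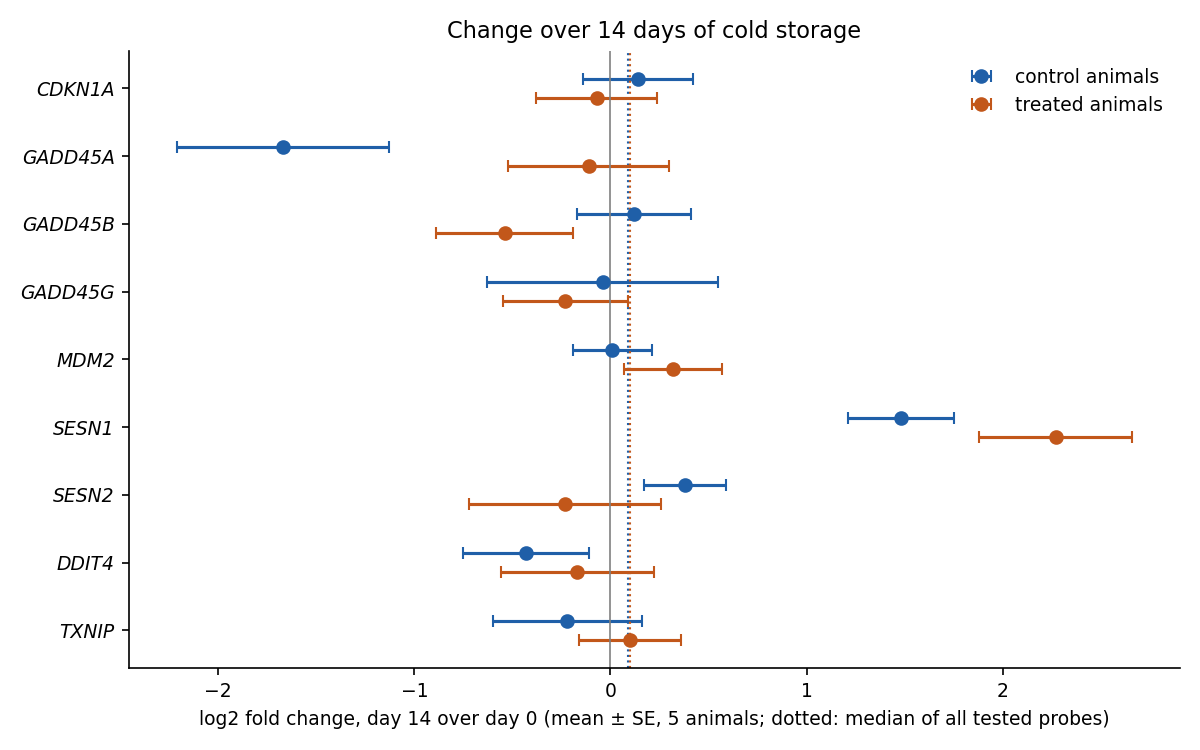
Log2 fold change from day 0 to day 14 (horizontal axis) of the 9 genes in control (blue) and treated (orange) animals, with the SE of the limma fit for 5 arrays against 5; dotted lines are the medians of all tested probes, 0.09 and 0.10. SESN1 lies at 1.48 and 2.27, GADD45A at -1.67 in control animals, and the other values between -0.54 and 0.38.

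The other members had wide intervals. CDKN1A changed by 0.14 ± 0.28 in control (95% interval -0.48 to 0.75) and -0.07 ± 0.31 in treated animals (-0.75 to 0.60). GADD45G changed by -0.04 ± 0.59 (-1.33 to 1.25) and -0.23 ± 0.32 (-0.93 to 0.48). DDIT4 changed by -0.43 ± 0.32 (-1.12 to 0.27) and -0.17 ± 0.39 (-1.03 to 0.69). With the animal as a block, which uses the pairing of both days, the SE for GADD45G was 0.29 in control and 0.18 in treated animals and for DDIT4 0.28 in both. No member outside SESN1 and GADD45A passed in that fit either.

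GADD45B was lower at day 14 in all 5 treated animals, with a mean change of -0.54 ± 0.35 (limma adjusted p = 0.262). With the animal as a block this change was -0.54 ± 0.19 (limma adjusted p = 0.0748). In control animals GADD45B was higher in 3 of 5, with a mean change of 0.12 ± 0.29 (adjusted p = 0.767). SESN2 changed by 0.38 ± 0.21 in control animals, 4 of 5 being higher at day 14 (adjusted p = 0.160), and by -0.23 ± 0.49 in treated animals (adjusted p = 0.753). MDM2 changed by 0.01 ± 0.20 and 0.32 ± 0.25, and TXNIP by -0.22 ± 0.38 and 0.10 ± 0.26.

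Storage moved a large part of the array, and the members' counts have to be read against that. In control animals 1 of 9 members was higher and 1 lower, beside 21.7% and 17.4% of all tested probes. In treated animals 1 was higher and none lower, beside 17.8% and 11.8%. Over all animals 1 was higher and none lower, beside 31.2% and 23.3%. SESN1 was the 1 member whose days did not overlap in control and in treated animals, where 25.0% and 20.4% of all tested probes did not. The share of members called was below that of all probes in each direction, so that these counts are no result about the 9 genes as a set. Of the probes called in control animals 55.5% were higher, a split that was 46.5% under quantile normalization and 77.1% under normexp. In treated animals these shares were 60.1%, 46.5% and 80.8%.

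The difference between treatments in storage change was tested as an interaction, which uses the same arrays as the treatment differences. No member passed, and 0.0% of all tested probes did, with 534 of 15437 at an unadjusted p under 0.05. For GADD45A, the largest value, the change was higher in treated than control animals by 1.56 ± 0.72 (95% interval 0.06 to 3.06, the only one of the 9 without 0, with limma adjusted p = 0.999). For SESN1 the value was 0.79 ± 0.49 (95% interval -0.24 to 1.83) and for GADD45B -0.66 ± 0.47 (-1.64 to 0.32). The GADD45A call in control animals and its absence in treated animals are thus not shown to differ after adjustment.

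Ordered by group means, GADD45G stood at 14.25 ± 1.17 (SD, n = 5) in control animals at day 0 and 14.21 ± 1.0 at day 14, then 11.93 ± 0.63 and 11.70 ± 0.48 in treated animals, and the ranges separated only between control and treated. SESN1 ran from 6.70 ± 0.32 in stored control and 6.08 ± 0.97 in stored treated muscle to 5.23 ± 0.56 in fresh control and 3.81 ± 0.14 in fresh treated muscle, and only the last of these neighbours did not overlap. GADD45A ran from 12.96 ± 1.06 in fresh control muscle over 11.29 ± 0.91 in stored control, 10.69 ± 0.93 in fresh treated to 10.58 ± 0.48 in stored treated muscle, every neighbour overlapping. For the other 6 members all neighbouring groups overlapped too.

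Among animals of the same group the members did not move as 1 block. With group means removed, Pearson correlations over the 20 arrays, in which the arrays of an animal are not independent, were highest between GADD45G and TXNIP (r = 0.75), DDIT4 and TXNIP (0.571), CDKN1A and DDIT4 (0.542) and CDKN1A and TXNIP (0.518). They were lowest between GADD45G and SESN2 (-0.49) and GADD45B and SESN2 (-0.398). GADD45A and GADD45B were nearly unrelated (-0.026), as were CDKN1A and GADD45G (0.066).

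Over 11411 named genes compared in the same way, those that varied most like CDKN1A were NCOA2 (0.785), SLC25A28 (0.783) and UTP14A (0.764). For GADD45G they were UBE4B (0.849), GGA3 (0.779) and ANGPTL4 (0.776). For GADD45A they were ORC6 (0.778), NUP35 (0.777) and EEFSEC (0.765), and for GADD45B PITRM1 (0.82), RHBDD1 (0.781) and ZFP36 (0.753). These values are the highest of many and are given as a description.

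The sestrins had other neighbours than these: SPECC1L (0.788), CACNA2D1 (0.776) and SH2D1A (0.776) for SESN1, and DNER (0.864), H1-5 (0.789) and IL1RAP (0.786) for SESN2, where DE32 stands apart. DDIT4 varied most like DHX38 (0.832), MAX (0.789) and NR2C2 (0.783), MDM2 like NAA30 (0.889), UBE2B (0.888) and PPP3R1 (0.883), and TXNIP like TOLLIP (0.89), USP34 (0.884) and SPIN1 (0.871).

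Genes around the members were counted from 6 lists, chosen with earlier results of these arrays known. Differences between treatments of list genes, with their adjusted p-values, are therefore a description and no independent evidence on the members. Over the 6 lists together, 58 of 136 tested genes (42.6%) passed in stored control and 38 (27.9%) in stored treated muscle. Of all tested probes 39.1% and 29.6% did, so that these totals, with both directions together, are near the background. When slide was made a block, 2 and 0 of the 136 passed. The split of directions moved with the scaling, in the lists and over all probes. In the lists 21 rose and 37 fell in stored control muscle, against 33 and 24 under normexp. In stored treated muscle 16 rose and 22 fell, against 51 and 21. Of all 15437 tested probes 3354 rose and 2688 fell in stored control muscle, against 5162 and 1534 under normexp. In stored treated muscle 2745 and 1820 did, against 7133 and 1700. In the main fit more called list genes fell than rose, while more called probes rose.

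Of 31 tested p53 target genes other than the members, 5 rose and 7 fell in stored control muscle and 4 rose and 3 fell in stored treated muscle. Under normexp these were 11 and 3 in control and 15 and 3 in treated animals, and with slide blocked 1 and 0 in control and none in treated animals. PERP, a p53 target in cell adhesion and death, rose by 0.93 ± 0.18 in control (limma adjusted p = 0.00306) and 1.44 ± 0.19 in treated animals (adjusted p = 0.000506). CCNG2, an atypical cyclin tied to growth arrest, fell by 1.07 ± 0.18 in control and 1.27 ± 0.21 in treated animals (limma adjusted p = 0.00161 and 0.00182). PPM1D, a phosphatase that switches p53 signalling off, and RPS27L fell in control animals by 1.08 ± 0.18 and 1.03 ± 0.23. TP53I3 and MDM4, the MDM2 relative that also binds p53, rose in treated animals by 1.21 ± 0.19 and 1.11 ± 0.18. Over all animals these 2 genes rose by 0.98 ± 0.13 and 1.26 ± 0.18.

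At day 0 only 1 of the 31 p53 targets differed between treatments: EDA2R, a receptor of the TNF family. It was lower in treated than control animals by 1.57 ± 0.31 (limma adjusted p = 0.0284), on a probe well above background on 7 of 20 arrays. Over both days SESN3, the third sestrin, was lower in treated than control animals by 0.67 ± 0.13 (adjusted p = 0.0226). At day 14 it differed by -0.67 ± 0.22 (adjusted p = 0.350). The list's median was -0.01 at day 0, the same as that of all tested probes.

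Of 19 tested CDK inhibitors, G1 cyclins and CDKs other than CDKN1A, 3 rose and 2 fell in stored control muscle and 1 rose and 1 fell in stored treated muscle. Normexp gave 8 and 1 in control and 12 and 0 in treated animals, and none passed with slide blocked. E2F4, a repressor of cell cycle genes, fell by 1.42 ± 0.14 and 1.03 ± 0.19 (limma adjusted p = 0.000321 and 0.00286). CCND1, which encodes cyclin D1, rose by 1.09 ± 0.26 in control animals, and CCND2 by 0.69 ± 0.19 in treated animals. Over all animals CCND2 rose by 0.68 ± 0.14. None differed between treatments at day 0, where CCND3 had the smallest p (-0.60 ± 0.16, adjusted p = 0.0768). Over both days CCND3, which encodes cyclin D3, was lower in treated than control animals by 0.78 ± 0.16 (limma adjusted p = 0.0245).

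The GADD45 partner list holds genes of kinases, cell cycle and repair proteins and nuclear receptors. Of 15 tested, 3 rose and 3 fell in stored control and 3 rose and 2 fell in stored treated muscle. Under normexp these were 5 and 3 in control and 8 and 2 in treated animals, and none passed with slide blocked. TDG, a DNA glycosylase of active demethylation, fell by 0.96 ± 0.17 and 0.66 ± 0.16, and MAPK12, the muscle p38 kinase, rose by 0.55 ± 0.16 and 0.67 ± 0.17. MAP2K7, an upstream kinase of JNK, was the only one that differed between treatments, higher in treated animals by 0.56 ± 0.12 at day 0 (limma adjusted p = 0.0417) and 0.53 ± 0.11 over both days (adjusted p = 0.0245).

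Of 21 tested integrated stress response genes, 3 rose and 5 fell in stored control and 2 rose and 4 fell in stored treated muscle, or 4 and 5 and 8 and 3 under normexp and none with slide blocked. ATF4, the factor that switches on SESN2 and DDIT4, fell by 1.72 ± 0.38 and 1.17 ± 0.25 (limma adjusted p = 0.00597 and 0.00650), and EIF2S1, which encodes the subunit that the stress kinases phosphorylate, fell by 1.39 ± 0.21 and 1.09 ± 0.16. EIF2AK4, the kinase that senses lack of amino acids, rose by 1.01 ± 0.22 and 1.63 ± 0.31. DDIT3 rose by 1.06 ± 0.23 in control animals (limma adjusted p = 0.00499), and HERPUD1 fell by 0.91 ± 0.23 in treated animals (adjusted p = 0.0122). The HERPUD1 change over all animals was -0.81 ± 0.14. At day 0 CEBPB was lower in treated than control animals by 1.1 ± 0.22 (adjusted p = 0.0313) and VEGFA higher by 1.25 ± 0.26 (adjusted p = 0.0335).

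The mTORC1 list holds the complex that sestrins and DDIT4 restrain, with its upstream regulators. It also holds the mTORC2 subunit RICTOR and the mTORC1 substrates EIF4EBP1 and RPS6KB1. Of 36 tested genes 5 rose and 17 fell in stored control muscle, a median of -0.47 where all tested probes had 0.09. In stored treated muscle 4 rose and 10 fell, a median of -0.35 beside 0.10. Of all tested probes 21.7% rose and 17.4% fell in stored control muscle, and 17.8% and 11.8% in stored treated muscle. RICTOR, the defining subunit of mTORC2, rose by 1.12 ± 0.19 and 1.14 ± 0.20, and LAMTOR4 rose by 1.67 ± 0.28 and 1.49 ± 0.28. LAMTOR1 and RRAGA, parts of the lysosomal anchor of mTORC1, fell by 0.96 ± 0.18 and 0.90 ± 0.17 in control animals. SEH1L, a GATOR2 subunit, fell by 1.06 ± 0.20 in treated animals, and its change over all animals was -1.1 ± 0.15.

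The number of falling mTORC1 genes was not stable to single animals or to the slide. In control animals it was 11 without K3, 10 without K6, 10 without K8 and 7 without K9, 10 under normexp, 11 with the animal as a block and 0 with the slide as a block. In treated animals it was 1 without DE29, 5 without DE30, 2 without DE31 and 1 without DE32, and 0 with the slide as a block. The median stayed below 0 in all of these. The number of falling probes over the whole array dropped too. In control animals it was 2688 in the main fit, 1455 without K9 and 37 with the slide as a block. In treated animals it was 1820, 882 without DE32 and 0 with the slide as a block. No gene of the list differed between treatments at day 0 or day 14, and over both days SESN3 alone did.

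Of 17 tested genes of the thioredoxin system and of TXNIP's arrestin-domain relatives and their regulators, 3 rose and 3 fell in stored control and 2 rose and 2 fell in stored treated muscle, or 2 and 2 in each under normexp and none with slide blocked. PRDX3, the mitochondrial peroxiredoxin, fell by 1.42 ± 0.28 and 1.43 ± 0.34, and TXNRD3 rose by 1.04 ± 0.25 and 1.28 ± 0.36. TXN, the thioredoxin that TXNIP binds, fell by 0.50 ± 0.17 in treated animals (limma adjusted p = 0.0483). The TXN change over all animals was -0.51 ± 0.11.

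The TXNIP relatives ARRDC3 and ARRDC4 differed between treatments at day 0. ARRDC3 fell by 1.62 ± 0.19 in treated animals (limma adjusted p = 0.00267) and ARRDC4 by 0.89 ± 0.16 (adjusted p = 0.0212), while MLXIPL, a glucose-responsive transcription factor, rose by 1.54 ± 0.24 (adjusted p = 0.0134). TXNIP itself differed by -0.25 ± 0.30. Whether the value of TXNIP differs from that of ARRDC3 was not tested. At day 14 ARRDC3 differed by -1.56 ± 0.30 (adjusted p = 0.116).

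**Figure D5:**
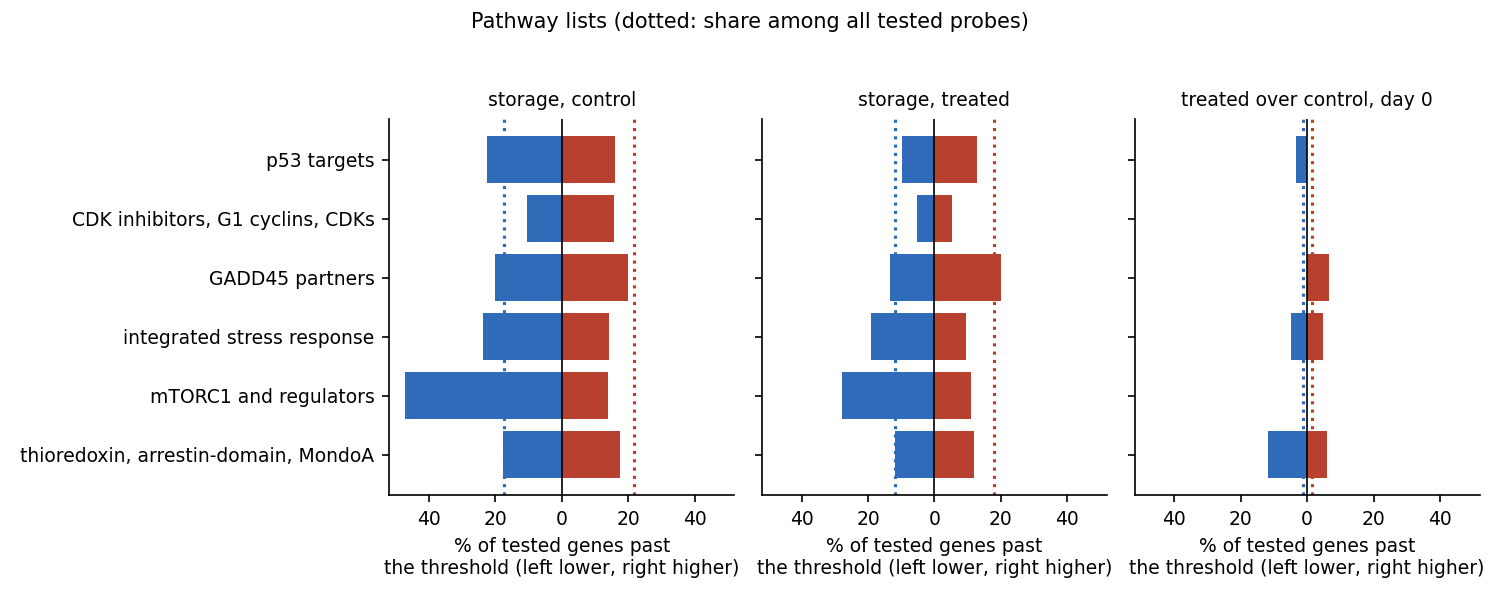
Percent of the tested genes of each of 6 lists (horizontal axis) that were past an adjusted p of 0.05 and lower (blue, left) or higher (red, right) after storage in control and in treated animals and in treated over control animals at day 0; dotted lines are the shares among all tested probes. The mTORC1 list has 17 of 36 genes lower in stored control muscle. Over the 6 lists 7 of 136 tested genes (5.1%) differ between treatments at day 0, beside 2.4% of all tested probes.

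Over the 6 lists together, 7 of 136 tested genes (5.1%) differed between treatments at day 0, 0 at day 14 and 7 (5.1%) over both days. Of all tested probes 2.4%, 0.0713% and 3.4% did. Nothing is read from these shares, since earlier results entered the choice of the lists. Of the storage counts over all lists, that in control animals was 26 without K9 and 37 without K8, and that in treated animals 17 without DE31 or DE32 and 19 without DE29. The treatment count at day 0 was 2 without K9, 3 without K8, K10, DE29 or DE30 and 4 without DE27 or DE32. Over both days it was 1 without K9, 2 without K8 or DE29, 4 without DE27 or DE30 and 12 without DE31.

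Markers of some other cell types moved with storage, beside 39.1% of all tested probes called in control and 29.6% in treated animals. Endothelial cell markers were higher in stored control muscle for 7 of 9 and in stored treated muscle for 4 of 9, their summed log2 level being 13.80 to 14.25 in fresh and 14.48 to 16.01 in stored control muscle, and 14.13 to 14.67 and 14.83 to 15.95 in treated muscle. Smooth muscle and pericyte markers were higher for 6 of 8 in control and 0 of 8 in treated animals, and fibroblast markers lower for 3 of 9 and 4 of 9. None of 8 macrophage and 6 satellite cell markers was called in either treatment. Of 21 skeletal muscle fibre markers 2 were higher and 4 lower in stored control muscle, and 6 higher and 1 lower in stored treated muscle. At day 0 none of the 9 endothelial, 8 smooth muscle, 9 fibroblast, 8 macrophage or 6 tested lymphocyte markers differed between treatments. Lower in treated animals at day 0 were 2 of 6 satellite cell markers, beside 1.13% of all tested probes lower and 1.32% higher. The lymphocyte markers CD3D, CD5, CD79B and MS4A1 were at background. The part of these cell types in the members' values was not tested.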

How the data were processed

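Cyanine 3-labelled total RNA was hybridised to a bovine Agilent oligonucleotide array, per the labels. The deposited intensity of a spot is the background-subtracted, detrended processed signal of Feature Extraction 9.5.1.1, per the file headers. A deposited table of intensity values normalized by the authors, by a method not given in the sources used here (their notes name R 2.11.1), served as an alternative. The deposited files also hold other columns, marks of outliers and of spots above background.

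Outlier spots (935) and control spots (1417) were left out, log2 signal was centred on each array's 75th percentile, and spots of a probe were averaged. Probes well above background on at least 5 of 20 arrays were tested (15437 of 21475). Of these, 12396 were named by matching the files' annotation to a RefSeq gene table (ARS-UCD2.0). Groups were fitted with limma 3.58.1 (statmod 1.5.0, R 4.3.3) over all tested probes, with a Benjamini-Hochberg threshold of 0.05, and tables were made with Python 3.11.15. On simulated data for the control storage comparison, 188 of 200 changed probes were called, and 12 unchanged ones, of 15427. The planted changes were larger than that of any member in this comparison, with independent noise and no slide effect. The simulation therefore does not tell how often changes of the members' size are found.

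Named were all 9 members, by their brightest tested probe and any other probe, and 3 genes of highest r per member. Per list and comparison, named genes come from the up to 4 of smallest p past the threshold, or 2 where none passed. Not every such gene is named. Members and lists were chosen with earlier results of these data known. Treatment and day came from titles and characteristics, which a free-text field contradicts, and 1 shortened treated title was read as DE31. Storage samples pair by animal, per the labels: arrays of 1 animal correlated with r from -0.147 to 0.281 after group means were removed, and 5 of 10 best with their own. Alternatives were other normalizations and filters, slide, session and animal blocks, probe means and leaving out each animal; slide as a random block was added after seeing the data. The number of arrays limits precision.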

Additional observations from a re-analysis of the deposited data

Results flagged for a closer look

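Of 40 groups of 5 values (10 probes, 4 groups), 2 held an array far from the 4 others, with a gap that was above Dixon's 95% critical value as a share of the group's range; chance flags about 1 group in 20. The SESN2 signal of DE32 in treated muscle at day 0 was 9.85, while the 4 other animals lay between 7.37 and 7.53 (gap 0.934 of the range). The MDM2 signal of DE27 in the same group was 9.60, with the others between 10.35 and 10.63 (gap 0.723). DE32 was also the highest treated animal at day 14 for SESN2 (8.60), and DE27 was not low for MDM2 at day 14 (10.92).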

How the results depend on the processing

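Counts of members past the threshold moved as follows. With the slide as a block, the count was 0 for storage in control (2 otherwise) and in treated animals (1 otherwise), and 5 for treatment at day 0 (2 otherwise); with the scan session as a block the latter was 4. Limited to probes well above background on all arrays, SESN1 was not tested and the count was 0 in treated and in all animals (1 otherwise). Normexp gave 3 for storage in all animals. Without the filter on dim probes treatment at day 0 gave 1. Leaving out 1 animal gave 1 to 2 members for storage in control animals, 1 to 2 in all animals, 1 to 3 for treatment at day 0 and 0 to 1 at day 14, where GADD45G was past it without K6. The animal as a random replicate block over all arrays gave 1 at day 14 (GADD45G; 0 otherwise); the pairing by animal changed no other call of a member. No called member changed sign. SESN1 in control animals ranged from 1.17 to 1.91 over the alternatives, and its treatment difference at day 0 from -1.62 to -0.59. Normexp moved the median storage change of all probes from 0.09 to 0.46 in control and from 0.10 to 0.48 in treated animals. Called probes below are of 15437 tested, but of 21475 without the filter and of 11632 with the strict filter at day 14. In control storage they numbered 6042, or 197 with the slide as a block. In treated storage they numbered 4565, 8833 (57.2%) under normexp, 8733 (40.7%) without the filter and 0 with the slide. Treatment at day 0 had 378 called probes, 230 without the filter and 201 with animal as a random block. At day 14 it had 11, or 107 with that block, 1 under normexp, 7 with the strict filter, 3 with the scan session and 0 with the slide. Over both days it had 520, 136 under normexp and 346 without the filter. Leaving out 1 animal gave 3241 (without K9) to 6662 called probes in control storage, 2432 (without DE32) to 5701 in treated storage, 135 (without K9) to 311 for treatment at day 0, 0 to 12 at day 14 and 220 (without K9) to 529 over both days. Slide and session blocks were not run over both days, since an animal's mean spans slides. Signal close to background limits SESN1 and the second SESN2 probe.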
